A study of Arabidopsis thaliana with 6 samples.

Results

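In this study of mutant Arabidopsis thaliana leaves, 101 probe sets read much lower in the replicate 3 array than in the replicate 1 array of both genotypes. RNA was measured on 6 Affymetrix ATH1 arrays, each probing transcripts with short oligonucleotide sets. Of 22810 probe sets, 64 were controls, and 12804 of the rest had a mean signal of at least 20 units over the 6 arrays and were tested. A probe set became a member when log2(signal + 10) of replicate 3 minus replicate 1 was below -2 in pad4 and also in pad4 est1b. The 101 members are 0.789% of the probe sets tested, and they were chosen by the measured signals of those 4 arrays, so their differences between replicates 1 and 3 are a description without a test.

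Both groups, of 3 arrays each, carry pad4-1, a mutation of PAD4, a regulator of salicylic acid signalling in immunity, in the Columbia background. The pad4 est1b double mutant carries in addition est1b-1, an insertion from a SALK line in AT5G19400 (EST1B), a factor of nonsense-mediated mRNA decay. No group with functional PAD4 was analysed here, and each mutation is represented by 1 allele. The developmental stage is labelled 5.10 weeks for all 3 double mutant samples and for pad4 replicate 1, and 3.90 weeks for pad4 replicates 2 and 3, and the pad4 replicates 2 and 3 are described as leaves where the others are described as developed rosette leaves. The difference between replicates 3 and 1 therefore goes with a change of stage label in pad4 and with none in the double mutant. Nothing in the labels ties replicates to separate plantings. No probe set names PAD4 or EST1B alone here, so the genotypes could not be checked on the arrays. Of 14 genes set as markers of leaf photosynthesis 3 could be read, and all were bright: LHCB4.1, an antenna protein of photosystem II, ran from 6471 to 8940.1 signal units over the 6 arrays.

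Among the members with a gene symbol are a transcription factor and several enzymes. Whether the members share a function could not be tested. EIN3 is the transcription factor that switches on ethylene responses, and its protein is kept low by F-box proteins until the hormone is sensed. UBP15 is a ubiquitin-specific protease, an enzyme that removes ubiquitin from proteins, known for its part in leaf growth. SDP1 is a lipase that breaks down stored triacylglycerol and is known for mobilising seed oil after germination. The labelling used here starts at the poly(A) end of the RNA, so a probe set reads the 3' part of a transcript, and probes that lie far from that end read only RNA copied up to them.

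Over the 101 members the median signal was 241, 142 and 39.7 units in pad4 replicates 1, 2 and 3, and 229, 106 and 41.0 units in the double mutant. Replicate 1 was the brightest and replicate 3 the dimmest in both genotypes, with replicate 2 between them. The median over all tested probe sets was 95.3, 87.8 and 70.6 units in pad4 and 98.3, 85.4 and 83.5 units in the double mutant. On the log2(signal + 10) scale the members' median lay above the median of all tested probe sets by 1.25 in pad4 replicate 1 and by 1.14 in double mutant replicate 1. In replicate 3 the same difference was -0.70 for pad4 and -0.87 for the double mutant. The members thus moved from the brighter to the dimmer part of the same array's distribution, in both genotypes. These values cannot tell apart fewer cells holding a transcript, less of it per cell and a difference in RNA quality or labelling between arrays.

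**Figure D1:**
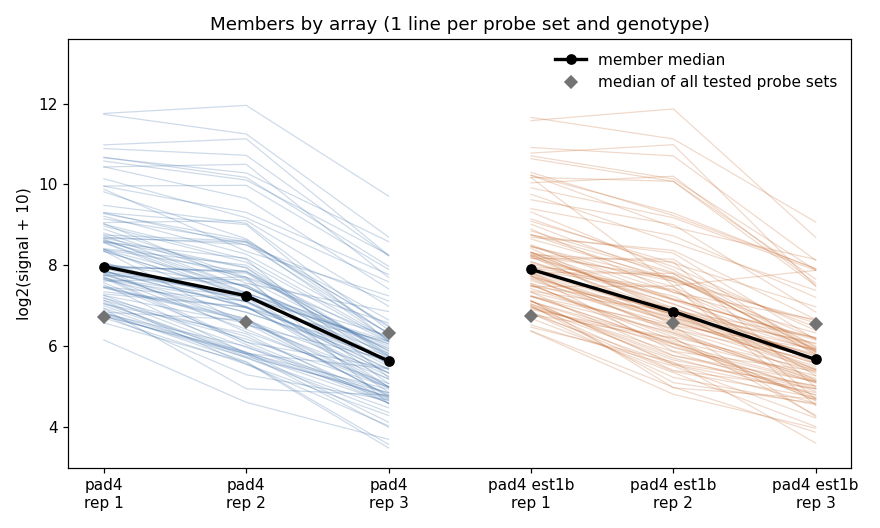
Level of each of the 101 members, as log2(signal + 10), in the 3 pad4 arrays (blue lines) and the 3 pad4 est1b arrays (orange lines), with the member median in black and the median of all tested probe sets as grey diamonds. The member median lies above the diamond in replicates 1 and 2 and below it in replicate 3 of both genotypes. The lines only join the values of 1 probe set, since replicates have no order.

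The difference of replicate 3 from replicate 1 ran from -3.79 to -2.03 in pad4, with a median of -2.47, which is 5.52-fold lower on the signal + 10 scale. In the double mutant it ran from -3.62 to -2.0, with a median of -2.30, or 4.91-fold lower. Over all tested probe sets the median difference was -0.26 in pad4 against -0.07 in the double mutant. After centring each array on its median, the members' median difference was -2.08 in both genotypes, and 38 probe sets, all of them members, still passed the rule. By the threshold of -2, pad4 alone gave 392 probe sets (3.06% of those tested) and the double mutant alone 174 (1.36%). The members are 25.8% of the former and 58.0% of the latter. In the other direction, 21 probe sets (0.164%) were above 2 in both genotypes.

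**Figure D2:**
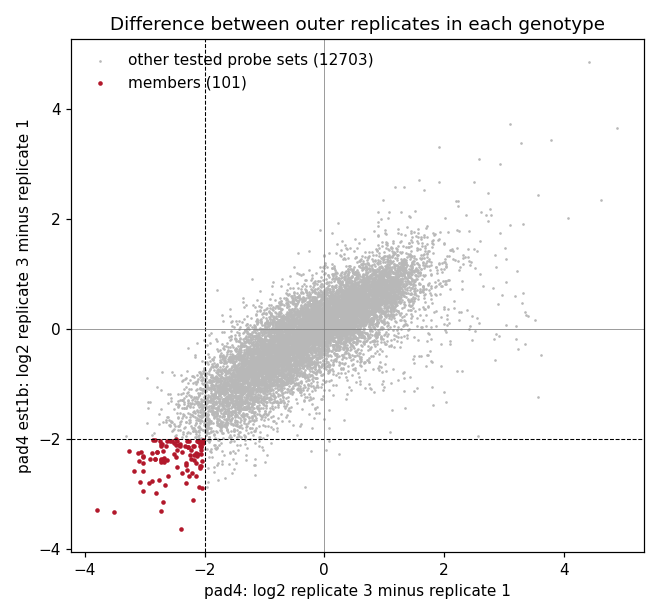
Difference of replicate 3 from replicate 1, log2(signal + 10), in pad4 (horizontal axis) and pad4 est1b (vertical axis) for the 12804 tested probe sets, with the 101 members in red. The dashed lines mark the threshold of -2 in each genotype, and the members fill the corner below both.

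The threshold cuts through a continuous cloud. The larger of the 2 differences lay between -2.5 and -2 in 87 of the 101 members, and 349 probe sets had it between -2 and -1.5. Just inside were CFM3A (-2.83 in pad4 against -2.02 in the double mutant), ALDH7B4 (-2.10 and -2.03), AT4G13780 (-2.75 and -2.03) and AT4G14930 (-2.64 and -2.03). Just outside were Cpn60beta3, a subunit of the chloroplast chaperonin (-1.99 and -2.18), AT5G53620 (-2.86 and -1.99), AT1G22060 (-1.96 and -2.18) and AT4G09150 (-2.14 and -1.96).

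All members were above 20 units in replicate 1, and some were close to the lower end of the scale in replicate 3. The rule asks for a replicate 1 signal far above that of replicate 3, so both are in part fixed by the choice. In replicate 1 the lowest member had 61.3 signal units in pad4 against 72.8 in the double mutant. In replicate 3, 26 members in pad4 against 21 in the double mutant were under 20 units (25.7% and 20.8%, against 11.8% and 6.77% of all tested probe sets), 16 of them in both. Of the 101 members 70 had at least 20 units in all 6 arrays. The offset of 10 units limits how large a difference a dim probe set can show.

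Only part of the members could be named. A single gene with a RefSeq entry was listed for 39 of the 101 (38.6%, against 53.6% of all tested probe sets), several genes for 1 and none for 61. The 39 belong to 39 different loci, of which 11 have a symbol and 28 only a locus identifier. Statements on gene identity or function below cover those 39 or 11 and not the other members.

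The 3 genes EIN3, UBP15 and SDP1 kept the same order of replicates in both genotypes. EIN3 (AT3G20770) had 558, 373 and 81.4 signal units in pad4 replicates 1, 2 and 3 and 535, 256 and 116 in the double mutant. Its replicate 3 value was 6.86-fold below replicate 1 in pad4 and 4.62-fold below it in the double mutant, as ratios of the signals. UBP15 (AT1G17110) had 123, 47.0 and 20.6 units in pad4 against 129, 36.9 and 18.9 in the double mutant. For UBP15 the values of replicate 2 lay nearer to replicate 3 on the log2 scale, unlike EIN3 in pad4. SDP1 (AT5G04040) had 216, 148 and 35.3 units in pad4 against 253, 141 and 37.6 in the double mutant. Its replicate 1 signal was 6.11-fold above replicate 3 in pad4 and 6.73-fold above it in the double mutant. In all 3 genes the ranges of the genotypes overlapped almost entirely.

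Besides UBP15, the members with a symbol include 2 further genes of protein breakdown. TPP2 (AT4G20850), tripeptidyl peptidase II, a very large protease that trims peptides, had 467, 199 and 85.4 signal units in pad4 against 422, 184 and 88.9 in the double mutant. ATSBT5.2 (AT1G20160), a subtilisin-type serine protease, had 196, 55.9 and 15.2 units in pad4 against 82.2, 35.5 and 8.71 in the double mutant. TPP2 was at nearly the same level in both genotypes in each replicate, and ATSBT5.2 was lower in the double mutant in every replicate.

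The members with a symbol also include 3 further metabolic enzymes or enzyme subunits beside the lipase SDP1. MCCA (AT1G03090), the biotin-carrying subunit of methylcrotonyl-CoA carboxylase in mitochondrial leucine breakdown, had 252, 173 and 36.9 signal units in pad4 against 293, 197 and 51.0 in the double mutant. ALDH7B4 (AT1G54100), a stress-related aldehyde dehydrogenase, had 421, 377 and 90.5 units in pad4 against 404, 321 and 91.4 in the double mutant. In ALDH7B4 nearly the whole difference fell between replicates 2 and 3. BGLU33 (AT2G32860), of the beta-glucosidase family, had 379.8, 235 and 36.6 units in pad4 against 282, 131 and 52.0 in the double mutant. KEU and CFM3A are members with other roles. KEU (AT1G12360), KEULE, a Sec1-type protein that controls vesicle fusion at the cell plate, had 191, 128 and 32.8 units in pad4 against 214, 91.2 and 33.7 in the double mutant. CFM3A (AT3G23070), an RNA-binding protein of chloroplast intron splicing, had 104, 46.0 and 5.99 units in pad4 against 116, 32.3 and 21 in the double mutant. The last symbol, SIS (AT5G02020), stands for Salt Induced Serine rich. With 371, 279 and 62.5 units in pad4 against 309, 185 and 15.9 in the double mutant, SIS had the lowest mean difference of the 39 named members (-3.01).

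**Figure D3:**
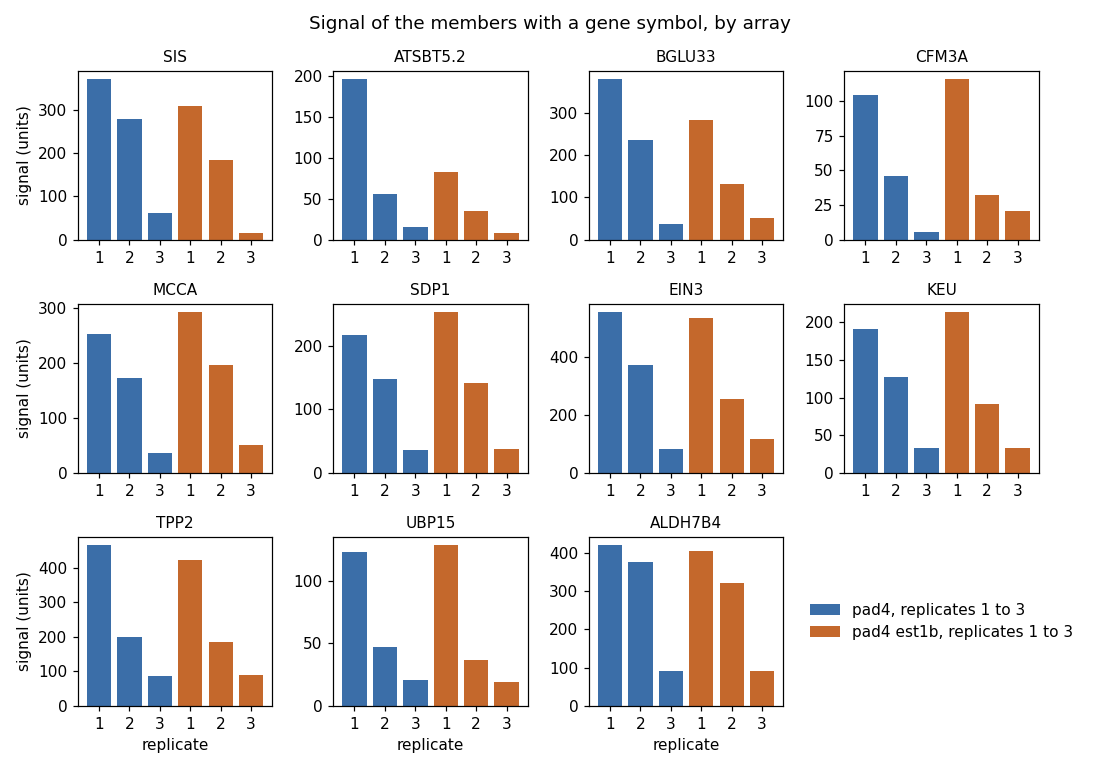
Signal in units (linear axis from 0, own scale in each panel) of the 11 members with a gene symbol in the 3 pad4 arrays (blue) and the 3 pad4 est1b arrays (orange). In all 11 panels replicate 1 is highest and replicate 3 lowest within each genotype, which the rule fixed for those outer arrays.

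Among members with a locus identifier only, the largest mean differences were those of AT1G72410 (85.5, 38.6 and 1.19 units in pad4 against 72.8, 18.1 and 5.71 in the double mutant) and AT2G29670 (1885, 1678 and 291 units in pad4 against 1664, 1116 and 226 in the double mutant). AT1G72410 was near the floor of the scale in replicate 3, and AT2G29670 stayed well above it. The next by mean difference were AT3G03790, AT1G22930, AT4G08310, AT3G62010, AT5G13770, AT1G15290 and AT3G11450, with differences from -3.26 to -2.62 in pad4 and from -2.68 to -2.22 in the double mutant.

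The lists of related genes show that the neighbours of EIN3 and SDP1 in their pathways had differences of both signs in pad4, and that most tested ubiquitin-specific proteases were lower in replicate 3, as were most genes of similar span. These lists were written from general knowledge with earlier results of these data known. Of 19 listed genes of ethylene signalling 3 could be read. Beside EIN3, RTE1, which acts with the receptor ETR1, had a difference of 0.60 in pad4 against -0.08 in the double mutant, and ETP2, an F-box protein that targets EIN2, had -0.62 and -0.05. Of 14 listed genes of storage lipid breakdown and beta-oxidation 4 could be read and 3 were bright enough to test. AIM1, a multifunctional protein of peroxisomal beta-oxidation, had -2.13 and -1.62, and CGI58, a regulator of lipid turnover, had 0.62 and -0.58. SDP1L, a relative of SDP1, was too dim to test, with at most 16.0 units on any array.

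Of 27 listed ubiquitin-specific proteases 12 could be read and 10 tested, and UBP15 was the 1 member. All 10 had a negative difference in pad4 (8 after quantile normalization or median centring), and 9 in the double mutant (7 after quantile normalization and 8 after median centring). Of all tested probe sets 59.2% had a negative difference in pad4 and 53.8% in the double mutant. The 10 genes have a median span of 3950 bases, and of the 1150 probe sets with spans from 3000 to under 4000 bases 929 (80.8%) had a negative difference in pad4 and 822 (71.5%) in the double mutant. The median was -0.92 for pad4 and -0.74 for the double mutant, against -0.75 and -0.36 in that span class and -0.26 and -0.07 for all tested probe sets. Closest to UBP15 was UBP23 with -1.90 and -2.01. UBP16 had -1.48 and -1.31, and UBP24 had -1.19 and -1.07. UBP25 had -1.02 and -0.23, UBP20 had -0.82 and -0.62, UBP19 had -0.78 and -0.37, and UBP18 had -0.53 and -0.86. UBP22, the enzyme of the SAGA-type histone deubiquitination module, had -0.21 and -0.03, and UBP27 had -0.07 and 0.43. The family thus spans nearly the whole range between the member UBP15 and no difference.

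Tested genes of other lists had differences from near those of the members to above 0. Many of them are long: INO80, UPF2, SEC6, CHR17, VPS18, PWD and CUL4 span from 5445 to 8744 bases. Probe sets with spans of 5000 bases or more had medians of -1.29 in pad4 and -0.97 in the double mutant. Of these, 96.4% were below 0 in pad4 and 94.1% in the double mutant. EXO84B, SE, U2AF65A, DPE1 and UPF3 are shorter, with spans from 3608 to 4671 bases. Whether the values below go with function or with gene span was not tested. The 2 tested chromatin regulators of 23 listed were INO80 (-2.30 in pad4 against -1.89 in the double mutant), a chromatin remodeller, and CHR17 (-1.53 and -1.31). Of 13 listed membrane traffic genes 3 were tested, SEC6 of the exocyst (-1.93 and -1.96), VPS18 (-1.61 and -1.60) and EXO84B (-1.19 and -0.45). Of 23 listed genes of RNA decay and silencing 3 were tested, UPF2 (-1.33 and -2.08), UPF3 (-1.55 and -1.22) and SE (-0.61 and -0.47). The single tested gene of the 16 for ubiquitin activation and ligases, CUL4, had -1.74 and -1.01, and that of the 14 splicing factors, U2AF65A, had -1.35 and -1.46. Of 12 starch breakdown genes 2 were tested, PWD with -1.29 and -1.45 and DPE1 with 0.39 and 0.58. None of these was a member, and in the genotype comparison 0 genes of any list were called.

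Markers of other cell types or states could hardly be read. The single guard cell marker of 7, FAMA, had -1.5 in pad4 against -0.16 in the double mutant (0.10 after quantile normalization and 0.05 after median centring). Of 9 senescence markers 3 were tested, with medians of 0.15 and -0.15 (0.59 and 0.01 after quantile normalization, 0.53 and 0.06 after median centring). The 3 leaf photosynthesis markers had medians of 0.29 and 0.23 (-0.01 and -0.16 after quantile normalization, 0.67 and 0.44 after median centring). No gene of the lists for photoreceptors and light signalling, auxin response, cellulose and callose synthases, ABC transporters, phloem, flower and meristem or root has a probe set that names it alone here, so the part of other tissues was not tested.

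Whether the members share a function could not be tested. A search of symbols and synonyms for 15 groups of function words matched 1 of the 11 members with a symbol, UBP15 under ubiquitin and proteasome. The tables give names and no descriptions, so EIN3, SDP1, BGLU33, KEU and CFM3A were not found by words for their own roles, and the search is void.

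Most named members had a long gene. The gene span, from start to end of the gene in the TAIR10.1 annotation with introns included, had a median of 4197 bases in the 39 named members and 2311 bases in the 6865 tested probe sets with 1 matched gene. The quartiles were 3435 and 5316 bases in the members, against 1696 and 3205 bases for all. The members' median lay at the 89th percentile of all named tested probe sets. Of the 39 members 32 spanned over 3000 bases (82.1%, against 29.7% of all), and 1 spanned under 2000 bases (2.56%, against 37.6%). A span was at hand for 38.6% of the members, too few for a check over the whole set, which is void. The values describe the 39 alone. The longest was TPP2 with 9351 bases, and UBP15 had 5260, SDP1 3863 and EIN3 2956. The shortest was AT4G02720 with 1804 bases, followed by AT5G13770 with 2054 and SIS with 2354. SIS, which had the lowest mean difference of the named members, was thus close to the median span of all named tested probe sets.

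The difference followed gene span across all named probe sets. Probe sets of genes under 1000 bases had a median difference of replicate 3 from replicate 1 of 0.83 in pad4 against 0.45 in the double mutant (424 probe sets). For spans from 2000 to under 3000 bases the medians were -0.24 and -0.02 (2242 probe sets; 0.04 and 0.13 after quantile normalization, 0.14 and 0.19 after median centring). For spans of 5000 bases or more they were -1.29 and -0.97 (422 probe sets; -0.96 and -0.75 after quantile normalization). From the shortest to the longest of 7 classes the share of members went from 0% to 2.61%, and the medians went down at every step in both genotypes. Across the 6865 probe sets, which share the same arrays, Spearman's rho between span and difference was -0.62 in pad4 against -0.53 in the double mutant. Exceptions exist at both ends. Of the 422 probe sets with the longest genes 12 (2.84%) were above 0 in both genotypes, and of 2584 with genes under 2000 bases 27 (1.04%) were below -1 in both.

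**Figure D4:**
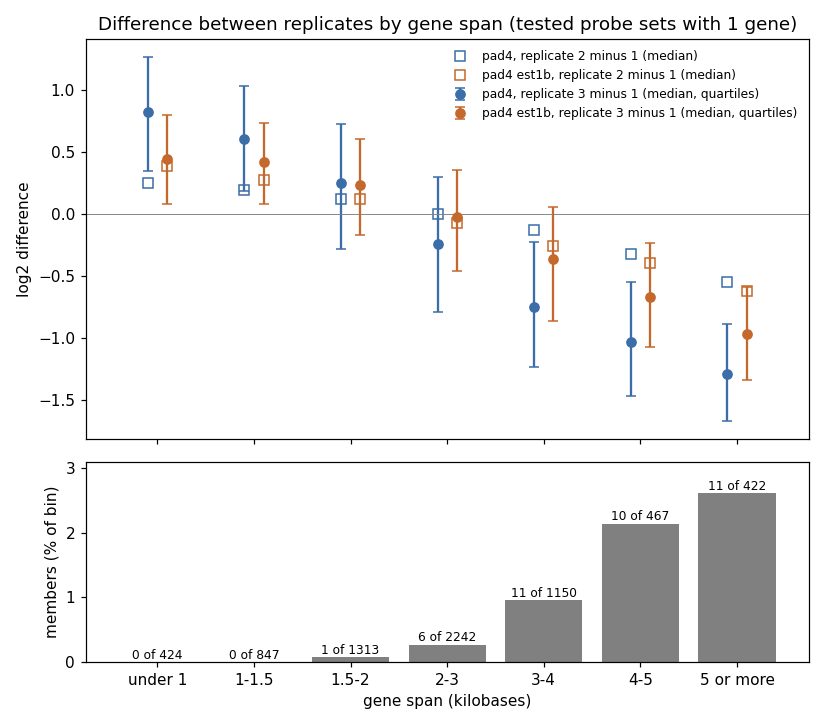
Upper panel, log2 difference of replicate 3 from replicate 1 (filled circles, median with quartiles) and of replicate 2 from replicate 1 (open squares, median) for tested probe sets with 1 gene, in 7 classes of gene span in kilobases, pad4 in blue and pad4 est1b in orange. Lower panel, percent of each class that are members. The medians go down and the share of members goes up with span, from 0 of 424 to 11 of 422.

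The difference of replicate 2, which the rule did not use, from replicate 1 showed the gradient too. Both differences subtract the same replicate 1 arrays, so this gradient is not independent of the one above. The median of replicate 2 minus replicate 1 was 0.25 in pad4 against 0.39 in the double mutant for genes under 1000 bases, and -0.55 and -0.62 for genes of 5000 bases or more. Spearman's rho was -0.48 and -0.51. Between the genotypes within replicate 2 the gradient was near 0, with a rho of -0.02 between span and the difference of the double mutant from pad4, and medians over the 7 classes between -0.04 and 0.08. In replicate 1 rho was 0.12, with medians from -0.08 to 0.08. In replicate 3 rho was 0.43, and the median difference of the double mutant from pad4 went from -0.39 for genes under 1000 bases to 0.40 for genes of 5000 bases or more. In replicates 2 and 3 the genotypes also differ in stage label, so genotype and stage label cannot be told apart there.

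Other properties stood closer to the background. RefSeq lists more than 1 transcript for 25 of the 39 named members (64.1%, against 47.6% of all). On chromosome 1 lie 14 of the 39 (35.9%, against 25.9%), and 4 to 7 on each of the others. Probe set types open to cross-hybridisation made up 2 of the 101 members (1.98%, against 3.53%).

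In replicate 2 the members lay between the outer arrays, in pad4 nearer to replicate 1 and in the double mutant about midway. The place of replicate 2 was expressed on the log2(signal + 10) scale, with 0 at replicate 3 and 1 at replicate 1. Its median was 0.66 for pad4 (quartiles 0.52 and 0.82) and 0.51 in the double mutant (quartiles 0.43 and 0.70). With 1 replicate 2 array per genotype this is a description. Members chosen for a wide gap between the outer arrays leave most unused values inside that gap, so lying between them is in part fixed by the choice. In pad4, 95 members lay between the outer arrays and 6 above replicate 1. In the double mutant, 96 lay between them, 4 above replicate 1 and 1 below replicate 3. The order replicate 1 over 2 over 3 held in both genotypes for 94 members (93.1%, against 22.3% of all tested probe sets, for which the outer arrays were not chosen). Within 1 genotype the order held for 37.9% of all tested probe sets in pad4 and for 28.7% in the double mutant.

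The step from replicate 1 to replicate 2 was smaller than that from 2 to 3 in pad4 and about as large in the double mutant. The median of replicate 2 minus replicate 1 was -0.88 in pad4 against -1.11 in the double mutant (tested probe sets, -0.02 and -0.05). The median of replicate 3 minus replicate 2 was -1.72 in pad4 against -1.18 in the double mutant (tested probe sets, -0.21 and -0.03). Replicate 3 was below replicate 2 by more than 1 in 91 members of pad4 (90.1%, against 14.6% of all) and in 68 of the double mutant (67.3%, against 5.26%). Replicate 2 was below replicate 1 by more than 1 in 37 members of pad4 (36.6%, against 2.16% of all) and in 64 of the double mutant (63.4%, against 4.44%). The members were chosen for a wide gap between replicates 1 and 3, so shares above those of all probe sets are largely fixed by the choice. The rule applied to replicate 3 against replicate 2 gave 15 probe sets, 13 of them members, and applied to replicate 2 against replicate 1 gave 0.

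The members differed among themselves in that place. In 49 members replicate 2 was nearer to replicate 1 in both genotypes, and in 14 it was nearer to replicate 3 in both. Across the 101 members, all read on the same 6 arrays, the place in pad4 and in the double mutant correlated with Pearson's r of 0.58 and Spearman's rho of 0.54. The highest mean places of named members were those of AT4G29950 (0.96 in pad4 against 0.88 in the double mutant), AT4G14930 (0.84 and 0.99) and ALDH7B4 (0.93 and 0.84). The lowest were those of AT3G59780 (0.32 and -0.17), AT5G46070 (0.07 and 0.30) and UBP15 (0.42 and 0.31). EIN3 had 0.78 and 0.51, and SDP1 had 0.78 and 0.68. AT5G46070 had 112, 20.9 and 17.7 signal units in pad4 against 103, 27.5 and 13.5 in the double mutant, so its replicate 2 value was close to that of replicate 3.

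**Figure D5:**
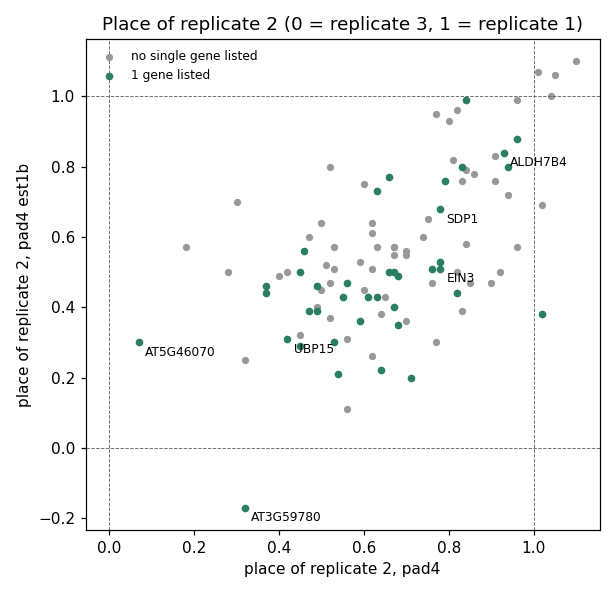
Place of replicate 2 between replicate 3 (0) and replicate 1 (1), on the log2(signal + 10) scale, in pad4 (horizontal axis) and pad4 est1b (vertical axis) for the 101 members; green points have 1 gene listed. Most points lie inside the dashed square, and 73 of the 101 have the higher place in pad4.

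The question of the series, whether loss of EST1B changes a transcript in the pad4 background, gave no call for any member in the fit of all 6 arrays without a replicate block. In that fit genotype goes in part with the stage label, 3.90 in pad4 replicates 2 and 3 and 5.10 in the other arrays. Limma called 0 of the 101 members at an adjusted p under 0.05, with 0.0391% of all tested probe sets called (5 of 12804, all higher in the double mutant). At an unadjusted p under 0.05 limma gave 0 members, against 4.44% of all tested probe sets, and the smallest unadjusted p of a member was 0.11. The rule itself put a large spread inside each group: the median standard error of the log2 fold change was 0.75 in the members and 0.32 over all, and a p that misses the threshold does not show that a member was alike in both genotypes. The median log2 fold change, double mutant over pad4, was -0.08 in the members and 0.03 over all, with 65 members below 0 and 36 above. It depended on single outer arrays, with 0.46 without pad4 replicate 1, 0.51 without double mutant replicate 3, -0.74 without pad4 replicate 3 and -0.62 without double mutant replicate 1.

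For the 3 genes named first the genotype difference was far smaller than its error. EIN3 averaged 338 ± 241 signal units in pad4 and 302 ± 213 in the double mutant (SD, n = 3), and its log2 fold change was -0.04 ± 0.74 (SE). UBP15 averaged 63.4 ± 52.9 and 61.6 ± 59.0 units (SD, n = 3), and its log2 fold change was -0.10 ± 0.67 (SE). SDP1 averaged 133 ± 91.2 and 144 ± 108 units (SD, n = 3), and its log2 fold change was 0.07 ± 0.74 (SE). The adjusted p by limma was 1.00 for each. The named members with the smallest p were AT3G59780 (log2 fold change 0.70 ± 0.77, SE), ATSBT5.2 (-0.71 ± 0.80), AT5G13770 (-0.68 ± 0.79), SIS (-0.77 ± 0.96), AT4G29950 (-0.61 ± 0.77) and AT5G16030 (-0.44 ± 0.80), none of which passed. AT3G59780 stood out in its pattern, with 514, 178 and 106 units in pad4 against 1144, 171 and 225 in the double mutant: the double mutant was higher in replicates 1 and 3 and the genotypes were alike in replicate 2.

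Compared within same-numbered replicates, the double mutant was lower than pad4 in replicate 2 for 75 of the 101 members (74.3%, against 50.8% of all tested probe sets), with a median log2 difference of -0.25 (-0.01 over all). In replicate 1 it was lower for 65 members (64.4%, against 50.7%), with a median of -0.08. In replicate 3 it was lower for 38 (37.6%, against 39.7%), with a median of 0.09, where the median over all was 0.14. Each of these is 1 array against 1 and has no test. In replicates 2 and 3 the stage label also differs, 3.90 in pad4 against 5.10 in the double mutant. Genotype and stage label therefore cannot be told apart in those replicates. In limma with a block for the replicate number, 1 of the 101 members was called, against 0.633% of all tested probe sets (0.547% higher and 0.0859% lower). It was a probe set with no gene listed, lower in the double mutant (log2 fold change -1.29 ± 0.20, SE, adjusted p = 0.029 by limma with the block). Its signals were 241, 219 and 41.9 units in pad4 against 100.3, 63.3 and 15.1 in the double mutant, lower in the double mutant in each replicate although the ranges of the groups overlap. At an unadjusted p under 0.05 that fit gave 12 members (11.9%, against 12.5% of all), a share at the background. In that fit the median standard error was 0.2 both in the members and over all, against 0.75 and 0.32 without the block. The block leaves the difference in stage label within replicates 2 and 3 in the genotype term.

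Measures of the RNA on each array are given beside these results, and their part in them was not tested. The log2 ratio of the 3' over the 5' probe set was read in 4 pairs of actin and GAPDH controls. In the GAPDH pair whose name begins with Athal it was 0.92, 1.15 and 1.86 in pad4 replicates 1, 2 and 3 and 0.97, 1.64 and 1.53 in the double mutant, lowest in replicate 1 of both. In the actin pair whose name holds r2 it was 1.5, 2.12 and 2.13 in pad4 against 1.77, 2.01 and 1.97 in the double mutant, again lowest in replicate 1. The Athal actin pair (3.56, 4.85 and 3.46 in pad4, 4.42, 3.50 and 4.21 in the double mutant) did not follow the members, and the r2 GAPDH pair stayed between -0.08 and 0.08 on all 6 arrays. The mean over the 4 pairs was 1.48, 2.05 and 1.85 in pad4 against 1.77, 1.78 and 1.92 in the double mutant. This mean was lowest in replicate 1 of both, and highest in replicate 2 of pad4 and in replicate 3 of the double mutant. The array's 25S ribosomal RNA control had 21.3, 430.4 and 248 units in pad4 against 35.9, 1356 and 728 in the double mutant, lowest in replicate 1 and highest in replicate 2 of both.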

How the data were processed

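The authors deposited linear intensities per probe set (signals). The submitters' processing notes list MAS5 and GCOS without versions or settings, and neither detection calls nor the build of the array annotation were used here. In the deposited values every array has a trimmed mean signal of 100.0, with total signals from 3405664 to 3894818 units. Groups and replicate numbers came from the sample titles. With 3 arrays per group the number of arrays limits precision, and a p-value speaks only to the scatter among these arrays, which may be technical.

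An offset of 10 units was added to the deposited signals before log2. Controls and probe sets with a mean under 20 units were left out. The genotype difference was fitted in limma 3.58.1 (R 4.3.3; lmFit and eBayes, two-sided, no covariate) with Benjamini-Hochberg adjustment over all 12804 probe sets at 0.05. The procedure was tested on simulated data with independent noise on each array, which does not cover deviations shared by same-numbered arrays. Genes were named through the platform annotation where 1 gene was listed, with symbols and gene spans of the TAIR10.1 table (39 of 39 members with 1 gene matched). The 265 listed genes were in 19 lists. The members, lists and rule for named genes were chosen with earlier results of these data known. That rule takes EIN3, UBP15 and SDP1, the 12 named members with the lowest mean difference, the 4 nearest on each side of the threshold, the 6 smallest genotype p-values, the 3 highest and 3 lowest places in replicate 2, and members or measured genes of the lists. Exceptions, named after their values were seen, are the other members with a symbol, AT4G02720, the probe set called with the block and the tested genes of further lists.

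No label says that same-numbered arrays form pairs, so the numbers were not taken as pairs in the main fit. Serial numbers in the titles put both replicate 1 arrays first, then the other pad4 arrays, then the other double mutant arrays. What these serial numbers stand for is not stated. Same-numbered arrays still deviated from their group means with correlations of 0.83, 0.0 and 0.68 for replicates 1, 2 and 3. The main fit thus keeps the deviations shared in replicates 1 and 3 in its error, and the fit with a block is given beside it. Alternatives changed the offset, the filter, the normalization between arrays, the probe set types, the eBayes options, the covariates, the threshold and the arrays used. Python 3.11.15 was used with scipy 1.17.1, numpy 2.4.6 and pandas 2.3.3 for tables, and matplotlib 3.10.9 for plots.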

Additional observations from a re-analysis of the deposited data

Results flagged for a closer look

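The array's control for 25S ribosomal RNA, which entered no comparison, had a mean of 706 ± 660 signal units over the double mutant arrays and of 233 ± 205 over the pad4 arrays (SD, n = 3). The former exceeds the brightest pad4 array, at 430.4 units, which is why it is listed here. Within each genotype replicate 1 was the dimmest, as given above, and the part of this control in the members' values was not tested.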

How the results depend on the processing

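The number of members depends on the settings. Against 101 probe sets, an offset of 1 gave 235, an offset of 30 gave 34, quantile normalization 62 (57 shared with the members), median centring 38, a threshold of -1.5 450 and of -2.5 14, the rule in pad4 alone 392 and in the double mutant alone 174. The rule for replicate 3 against 2 (15) and for replicate 2 against 1 (0) was added after the data were seen. The median gene span of named members stayed within 1.5 times of 4197 bases wherever it could be computed, and the places in replicate 2 moved by less than 0.11, the spread between the genotypes. Limma called 0 members in every genotype fit except the one with a replicate block, which called 1, and the block does not rest on a pairing in the labels. The median genotype fold of -0.08 was -1.18 with the stage label as a covariate and ran from -0.74 to 0.51 with single arrays left out, where dropping an outer array takes the brightest or dimmest values from 1 group. With the stage label as a covariate, the genotype term compares the double mutant arrays with pad4 replicate 1 alone, an array in which the rule made the members bright. The value of -1.18 is therefore no estimate of the genotype difference at equal stage. With single arrays left out the calls stayed at 0, and the fold changes ran from -0.61 to 0.76 for SDP1, -0.83 to 0.49 for EIN3, -0.74 to 0.46 for UBP15, -0.13 to 1.31 for AT3G59780, -1.44 to 0.07 for ATSBT5.2, -1.47 to -0.06 for AT5G13770, -1.5 to 0.32 for SIS, -1.43 to 0.04 for AT4G29950 and -1.36 to 0.04 for AT5G16030. The sign turned for SDP1 with quantile normalization (-0.02) and the stage label (-0.87), for EIN3 with the control ratio as a covariate (0.03) and for AT3G59780 with the stage label (-0.52); the cause was not tested. Of the remaining values 142 for single genes kept their direction and call, and 66 summary values moved by less than the spread between replicates or genotypes (0.17 for the median fold, 0.11 for a place) or, for counts and spans, by at most 1.5 times. Among these the median fold turned to 0.03 without pad4 replicate 2. Signals under about 20 units, frequent in replicate 3, limit what the members' differences can show.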
